A study of Homo sapiens with 16 samples.

Results

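The transcripts of 8 secreted or cell-surface antagonists of TGF-beta family ligands were followed in MCF10DCIS.com cells, a human breast line that forms lesions resembling ductal carcinoma in situ. The genes, chosen by symbol as extracellular antagonists, were FST, FSTL1, FSTL3, BAMBI, TWSG1, NBL1, GREM1 and NOG, which are 8 of the 78894 genes in the table of counts. Of the 8, 7 passed the filter on low counts that 16790 genes passed, and GREM1 did not. Every cell descended from 1 clone in which both copies of PCSK5, a proprotein convertase that processes secreted precursors including that of GDF11, had been disrupted with a guide to exon 4. Before that clone was isolated, the cells had received 200 nM Shield-1, a ligand that keeps the destabilised Cas9 from being degraded, and the clone was sorted as a single cell into 10 ng/ml GDF11. It was then given a guide-resistant, V5-tagged PCSK5 allele under tetracycline control, and each allele is represented by 1 polyclonal line selected with hygromycin. The 4 groups, of 4 wells each, were the T288P line grown throughout with 250 ng/ml recombinant mature GDF11 (T288P+GDF11), the M452I line without GDF11, the T288P line without GDF11, and the wildtype line without GDF11 (WT). All wells were 3-dimensional cultures on matrigel in medium with 5 ng/ml EGF. Doxycycline at 1 µg/ml was added in every group on day 4 to switch on the allele, and RNA was taken on day 8.

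Ligands of the TGF-beta family bind pairs of serine/threonine kinase receptors on the cell surface. Activins, GDF11 and myostatin signal through SMAD2 and SMAD3, and most bone morphogenetic proteins (BMPs) through SMAD1, SMAD5 and SMAD9. Antagonists act before the receptor or at it. Follistatin (FST) and its relative FSTL3 wrap around activins, GDF11 and myostatin. Noggin (NOG), gremlin 1 (GREM1), NBL1 (also called DAN) and TWSG1, which acts together with chordin, bind BMPs. BAMBI is a membrane pseudoreceptor without a kinase domain, and FSTL1 is a secreted glycoprotein that shares a follistatin-type domain with FST. Several antagonist genes, FST and NOG among them, are themselves known targets of the ligands that their products bind, which makes them candidates to read out when the supply of a ligand changes.

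The start regions of 3 of the genes are printed because they hold the follistatin pair, whose transcripts behaved differently between wells, and the antagonist with the most SMAD-type motifs. Each runs from 250 bases before to 50 bases after the gene's start in RefSeq (GRCh38.p14), on the plus strand. Capitals mark any match on either strand to 5 motifs: the palindromic SMAD box, which reads GTCTAGAC; the CAGA box, which reads CAGACA; a SMAD box with a final guanine, which reads GTCTG; a GC-rich SMAD element, which reads GGCGCC; and a variant of that element with an adenine in the middle, which reads GGAGCC. The SMAD box with a final guanine overlaps the CAGA box, since the other strand of the CAGA box contains it.
FST, chr5:53480379-53480678, plus strand: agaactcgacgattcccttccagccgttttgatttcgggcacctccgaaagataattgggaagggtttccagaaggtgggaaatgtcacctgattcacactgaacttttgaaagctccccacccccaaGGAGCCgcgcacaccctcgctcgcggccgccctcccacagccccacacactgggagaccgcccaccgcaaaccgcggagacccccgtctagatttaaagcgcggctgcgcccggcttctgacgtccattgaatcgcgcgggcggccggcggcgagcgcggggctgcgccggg
FSTL3, chr19:676142-676441, plus strand: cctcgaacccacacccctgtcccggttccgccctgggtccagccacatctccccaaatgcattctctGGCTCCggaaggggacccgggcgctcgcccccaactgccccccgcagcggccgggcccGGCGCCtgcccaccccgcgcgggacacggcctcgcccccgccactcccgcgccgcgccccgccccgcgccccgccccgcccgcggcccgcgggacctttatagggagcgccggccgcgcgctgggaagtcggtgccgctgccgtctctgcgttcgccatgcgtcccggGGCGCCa
BAMBI, chr10:28677271-28677570, plus strand: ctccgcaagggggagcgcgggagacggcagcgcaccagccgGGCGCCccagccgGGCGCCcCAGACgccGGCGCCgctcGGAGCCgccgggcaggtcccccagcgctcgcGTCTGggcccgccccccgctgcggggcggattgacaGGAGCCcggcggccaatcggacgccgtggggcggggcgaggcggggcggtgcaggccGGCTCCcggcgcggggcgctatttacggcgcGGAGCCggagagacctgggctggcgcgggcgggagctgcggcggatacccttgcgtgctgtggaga
The FST region held 1 match, a match to the adenine variant at position -122 from the start. The FSTL3 region held 3, with the GC-rich element at -125 and 44 and its adenine variant on the other strand at -183. The BAMBI region held 9 matches. Among the 7 antagonists found in the RefSeq table (NOG was the exception), the palindromic box occurred in 0 regions, the CAGA box in 1 (GREM1), the SMAD box with a final guanine in 2, the GC-rich element in 4 and its adenine variant in 5. Of all 35116 start regions of this length, 0.202% held the palindromic box, 16.9% the CAGA box, 45.3% the SMAD box with a final guanine, 19.2% the GC-rich element and 36.0% its adenine variant. These matches describe letters in a window and were not tested for binding.

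The library totals ran from 28.45 to 50.76 M counts. Replicates are wells of 1 line per allele, so the p-values below measure the spread between wells, which may be technical, and they cover no other line. PCSK5 itself gave 25.3 to 49.3 counts per M (CPM, scaled with TMM factors) in T288P+GDF11, 25.6 to 66.8 CPM in M452I, 26.4 to 56.5 CPM in T288P and 33.1 to 57.9 CPM in WT, and reads of the disrupted and the added copies were not separated. All 10 epithelial markers examined were detected in every group. M452I replicate 4 and T288P replicate 1 stood apart from their groups: on the first principal component (27.1% of the variance) the M452I wells scored -44.7 to -32.9 apart from replicate 4 at 37.5, and the T288P wells scored 2.15 to 8.81 apart from replicate 1 at -43.0. The T288P+GDF11 wells scored 44.1 to 63.6 and the WT wells -39.6 to -5.04. T288P replicate 1 thus lay within the range of the other M452I wells. M452I replicate 4 lay beyond the other untreated T288P wells, on their side, and nearer to the T288P+GDF11 wells than to them. Whether the wells had been exchanged was not tested, and the labels are used as deposited. The edgeR results of the antagonists that rest on these wells are given with and without them.

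In the allele comparisons none of the 7 tested antagonists passed edgeR's quasi-likelihood test at an adjusted p under 0.05. The background was low too: 0.0238% of all 16790 genes were called in M452I against WT, 0.0417% in T288P against WT and 0.00596% in M452I against T288P. At an unadjusted p under 0.05 the edgeR count of antagonists was 1 for M452I against WT (NOG), beside 6.3% of all genes, 0 for T288P against WT, beside 8.49%, and 0 for M452I against T288P, beside 2.18%. With GDF11, 1 of 7 antagonists was called against untreated T288P and 1 of 7 against WT, both times NOG and both times higher. Of all genes, 12.9% were called against T288P (5.07% higher) and 28.9% against WT (13.8% higher). A single call among 7 genes is too few to set the antagonists apart from these shares, and it says nothing particular about the set. Against M452I, 0 of 7 were called in T288P+GDF11 at edgeR's adjusted p under 0.05, where 21.2% of all genes were called. At an unadjusted edgeR p under 0.05 it was 1 of 7, beside 36.2% of all genes, and at DESeq2's adjusted p under 0.05 it was 1 of 7, beside 25.3% of the 17003 genes it gave one for, NOG both times. The median log2 fold change of the 7 was 0.04 in T288P+GDF11 against T288P, beside -0.01 over all genes, and 0.04 in M452I against WT, beside 0.03.

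Read per kilobase of exon, the summed level of the 8 named antagonists was made mostly of FSTL3 and NBL1. The order below covers these 8 genes only. SMOC1, an antagonist outside the 8, averaged 31.2 ± 10.6 CPM per kb (SD, n = 16 wells). In T288P+GDF11 it averaged 46.0 CPM per kb, beside 43.4 for FSTL3. FSTL3 averaged 41.4 ± 2.82 CPM per kb and NBL1 25.2 ± 1.44 CPM per kb (SD, n = 16 wells). Together they held 77.1% to 82.65% of the summed level per kb of the 8 genes in every well. TWSG1 followed at 9.28 ± 1.23 CPM per kb, then BAMBI at 4.15 ± 0.761 and FST at 2.62 ± 0.897 CPM per kb. NOG averaged 0.846 ± 0.357 CPM per kb and FSTL1 0.319 ± 0.0735 CPM per kb. GREM1 was close to 0. Neighbours in this order did not overlap across the 16 wells, except BAMBI with FST, where BAMBI was the higher in 15 of 16 wells, and NOG with FSTL1, where the ranges over wells overlapped although NOG was the higher within each of the 16 wells. The follistatin pair differed in steadiness when the groups were pooled. The SD of log2 CPM within groups was 0.09 for FSTL3, at the 3.16th percentile of all genes tested, and 0.46 for FST, at the 70.8th percentile, where the median gene had 0.27. NBL1 was as steady as FSTL3, with an SD of 0.09 at the 3.35th percentile. These percentiles were not matched on level. The FST spread lay mostly in the 2 groups with a well that stood apart. There the SD of FST was 62.0% of its mean in M452I and 30.9% in T288P, against 5.88% and 3.61% for FSTL3. In WT this share was 10.8% for FST and 1.50% for FSTL3, and in T288P+GDF11 it was 9.39% and 10.1%.

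**Figure D1:**
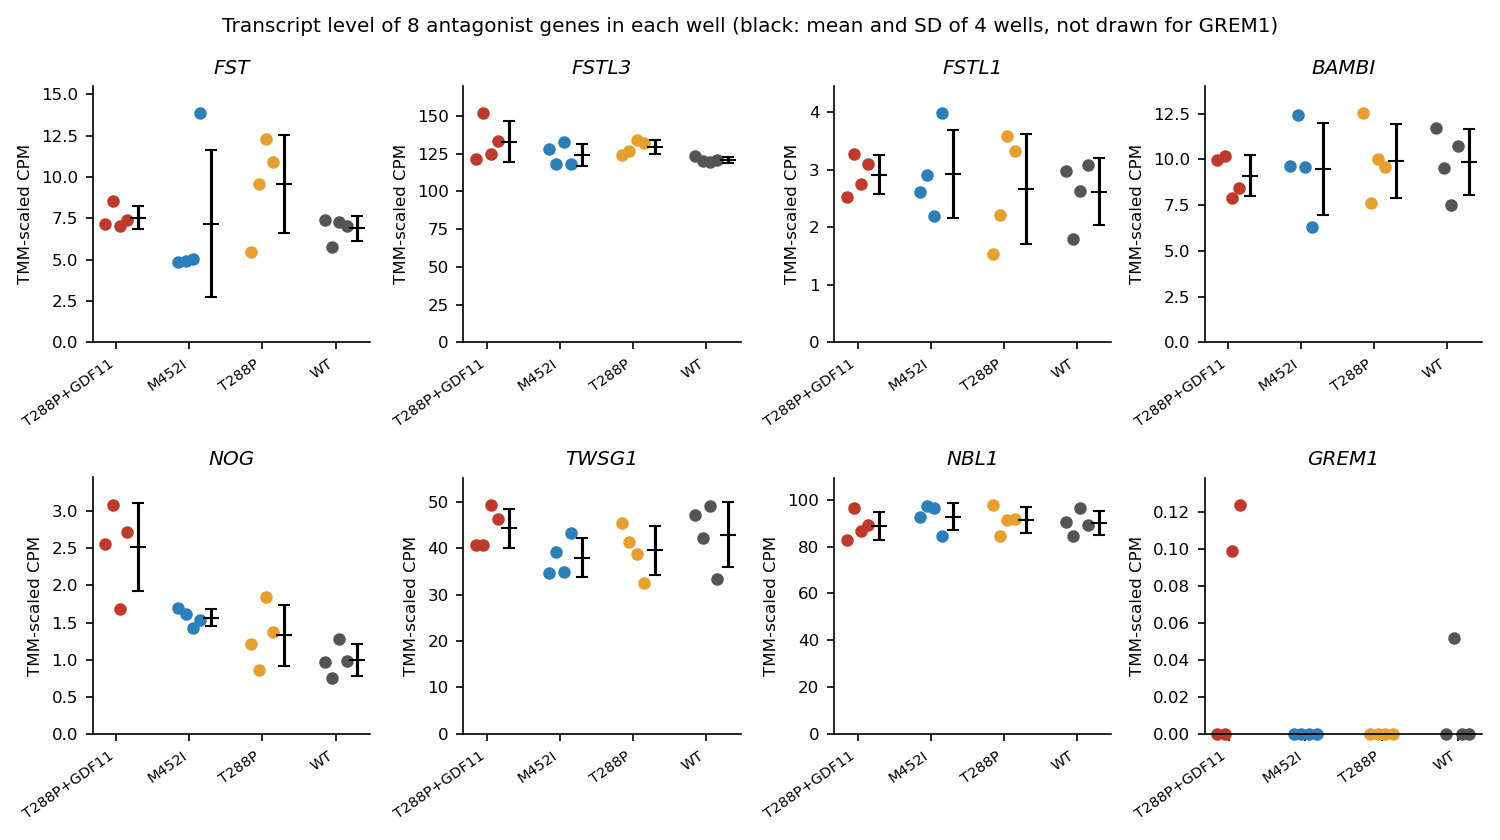
TMM-scaled CPM (y axis, linear, from 0) of each of the 8 antagonist genes in each of the 16 wells, by group (x axis); points are wells, and black marks give the mean and SD of 4 wells. NOG reaches 1.69 to 3.09 CPM in T288P+GDF11 and 0.753 to 1.28 CPM in WT, M452I replicate 4 stands at 13.8 CPM of FST above the other M452I wells, and FSTL3 and NBL1 are nearly level across groups.

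NOG, which encodes the BMP-binding protein noggin, was the one antagonist that passed the test, and it was higher in GDF11-treated cells. The gene (ENSG00000183691, a single exon at chr17:56593699-56595590, plus strand, GENCODE 29 on GRCh38) gave 2.56, 3.09, 1.69 and 2.73 CPM in the T288P+GDF11 wells, from 87, 141, 68 and 88 counts. In untreated T288P it gave 1.22, 0.866, 1.84 and 1.38 CPM, from 37, 40, 53 and 46 counts. The T288P+GDF11 values lay above all T288P values in 3 of 4 wells, and T288P+GDF11 replicate 3 fell inside the T288P range. NOG rose 1.90-fold with GDF11, a log2 fold change of 0.93 (SE 0.27, 95% interval 0.37 to 1.49, edgeR adjusted p = 0.0285). The edgeR call was lost without T288P replicate 1 or 2, or without T288P+GDF11 replicate 1, 2 or 4 (adjusted p 0.0603 to 0.0806), without both wells that stood apart (adjusted p = 0.0545), and with no low-count filter (adjusted p = 0.0693), while the log2 fold change stayed between 0.79 and 1.13 when any single library was left out.

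Markers of cell state differed in the same contrast, in which 5.07% of all genes rose and 7.88% fell by the edgeR test. The summed level of 10 epithelial markers ran from 6496 to 7754 CPM in T288P+GDF11 and from 8239 to 11073 CPM in T288P, and 4 of the 10 fell while 0 rose by the edgeR test. The summed level of 10 mesenchymal markers ran from 1974 to 2273 CPM in T288P+GDF11 and from 1020 to 1087 CPM in T288P, and of the 9 tested, 4 rose and 1 fell. For 10 fibroblast markers, of which 3 were tested and 1 rose, the sums were 27.1 to 32.3 CPM in T288P+GDF11 and 8.84 to 15.9 CPM in T288P, with COL1A2, COL3A1, LUM and THY1 at 0 in both groups. For 8 endothelial and immune markers, of which 4 were tested, 2 rose and 1 fell, the sums were 103 to 128 CPM in T288P+GDF11 and 145 to 212 CPM in T288P, where CDH5 was at 0. In bulk RNA, fewer cells of a type and less RNA per cell cannot be told apart, and the part of these markers in the NOG result was not tested.

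Against the wildtype line NOG rose as well. The WT wells gave 0.975, 0.753, 1.28 and 0.975 CPM, and every T288P+GDF11 well lay above every WT well, in a comparison where 35.1% of all genes had no overlap between these groups. NOG averaged 2.51 ± 0.594 CPM in T288P+GDF11 and 0.996 ± 0.217 CPM in WT (SD, n = 4 each), a 2.51-fold rise (log2 1.33, SE 0.27, edgeR adjusted p = 0.00142). This call held under all 24 alternatives, with adjusted p between 3.55e-05 and 0.00649. This comparison changes the allele and GDF11 together, and their parts cannot be told apart in it.

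Without GDF11, NOG was not called between alleles. The M452I wells gave 1.70, 1.61, 1.43 and 1.54 CPM, so M452I lay above WT in 4 of 4 wells, where 4.09% of all genes had no overlap between these groups in either direction, and 1.78% had none with M452I higher. The log2 fold change of M452I over WT was 0.65 (SE 0.27) with an edgeR unadjusted p of 0.0274 and an adjusted p of 0.776. T288P and WT overlapped, with a log2 fold change of 0.40 (SE 0.27, edgeR adjusted p = 0.723). M452I and T288P overlapped as well, with a log2 fold change of 0.25 (SE 0.27, edgeR adjusted p = 1). T288P+GDF11 over M452I gave 0.68 (SE 0.26) with an edgeR adjusted p of 0.0718 and a DESeq2 adjusted p of 0.0421. The T288P+GDF11 contrasts above share their treated wells, so they are separate readings of the same 4 values.

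FST, which encodes follistatin, the soluble trap of activins and GDF11, was not called in any comparison, and its values were split by the wells that stood apart. The gene (ENSG00000134363, chr5:53480409-53487134, plus strand) gave 7.15, 8.58, 7.04 and 7.38 CPM in T288P+GDF11. In M452I it gave 4.88, 4.95, 5.02 and 13.8 CPM, with replicate 4 the highest of all 16 wells. In T288P it gave 5.45, 9.57, 12.3 and 10.9 CPM, with replicate 1 below the other wells. The WT wells gave 7.43, 5.79, 7.29 and 7.05 CPM. With all wells in the model the log2 fold change was -0.34 for T288P+GDF11 over T288P (SE 0.29, edgeR adjusted p = 0.478), 0.06 for M452I over WT (SE 0.30, 95% interval -0.56 to 0.68, edgeR adjusted p = 0.982), 0.47 for T288P over WT (SE 0.29, edgeR adjusted p = 0.687) and -0.42 for M452I over T288P (SE 0.29, edgeR adjusted p = 1).

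Without M452I replicate 4 and T288P replicate 1 the FST values separated by allele. M452I then averaged 4.95 ± 0.0720 CPM (SD, n = 3), T288P 10.9 ± 1.37 CPM (SD, n = 3) and WT 6.89 ± 0.747 CPM (SD, n = 4). FST was 2.2-fold lower in M452I than in T288P, a log2 fold change of -1.14 (SE 0.15, edgeR adjusted p = 0.000496), in a model that called 14.1% of 17212 genes. T288P over WT was 1.58-fold (log2 0.66, SE 0.14, edgeR adjusted p = 0.0111, background 4.06%), and T288P+GDF11 over T288P was -0.53 (SE 0.14, edgeR adjusted p = 0.0136, background 13.7%). T288P+GDF11 over M452I was 0.61 (SE 0.14, edgeR adjusted p = 0.00207, background 40.3%), with 0.07 (SE 0.29, edgeR adjusted p = 0.883) when all wells were kept. M452I over WT was -0.48 (SE 0.14, edgeR adjusted p = 0.0688, background 3.72%), and T288P+GDF11 over WT was 0.13 (SE 0.13, edgeR adjusted p = 0.47, background 36.3%). FST itself correlated with the first principal component over the 12 untreated wells (r = 0.923), and the omitted wells are extreme for FST in their groups, so these values describe the remaining wells and do not replace those from all wells. Without M452I replicate 4 alone, FST was called in T288P+GDF11 against M452I (log2 0.61, edgeR adjusted p = 0.0229, background 38.1%).

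FST varied with INHBA, the gene of the activin A subunit that follistatin neutralises, from well to well, though not with INHBA in particular. INHBA had the highest CPM of the ligand genes (not scaled by length), at 608, 526, 574 and 621 CPM in T288P+GDF11, 341, 352, 349 and 665 CPM in M452I, 329, 511, 560 and 528 CPM in T288P and 446, 320, 456 and 316 CPM in WT. The same wells were out of place for both genes: M452I replicate 4 was the high one and T288P replicate 1 the low one. Over the 12 untreated wells Pearson's r of log2(CPM + 0.1) was 0.918 (permutation p = 0.00012, 0.00084 after Benjamini-Hochberg adjustment over the 7 antagonists tested) and Spearman's rho was 0.769 (permutation p = 0.00548, adjusted 0.0384). Without M452I replicate 4 and T288P replicate 3, the wells farthest from the median of INHBA, r was 0.84 (permutation p = 0.00572) and rho 0.6 (permutation p = 0.074, n = 10), so the rank relation does not pass without them. T288P replicate 1 was kept there, and the relation was not computed without both wells that stood apart. The permutations shuffled the wells freely across the alleles, so these p-values take the wells as exchangeable. Deviations from the group means correlated at 0.932 over the 12 wells. Over the same 12 wells FST correlated with the first principal component at r = 0.923. With the 3 genes most like it over all 16 libraries it reached 0.963 (ANO9), 0.94 (PYGO2) and 0.941 (LTB4R). The share of all genes that correlate with FST as strongly as INHBA does was not counted. Of the other 6 antagonists none passed in this family of tests; FSTL1 came nearest with r = 0.65 (adjusted permutation p = 0.0684), then BAMBI with r = -0.637 (adjusted permutation p = 0.0723).

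The amount of FST relative to INHBA was lower in GDF11-treated T288P wells than in untreated T288P wells. FST gave 1.18, 1.63, 1.23 and 1.19 counts per 100 INHBA counts in T288P+GDF11, against 1.66, 1.88, 2.198 and 2.07 in T288P. The groups did not overlap, but T288P+GDF11 replicate 2 came close to T288P replicate 1. Of all single genes, 22% had no overlap between these groups, and 11.8% had none with T288P+GDF11 lower. The share over ratios of genes was not computed. The ratio was 1.43, 1.41, 1.44 and 2.08 in M452I and 1.66, 1.81, 1.60 and 2.23 in WT. Without GDF11, M452I replicates 1 to 3 and WT replicate 3 thus lay within the T288P+GDF11 range. The ratio was examined after both genes had been seen, and it was not tested.

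**Figure D2:**
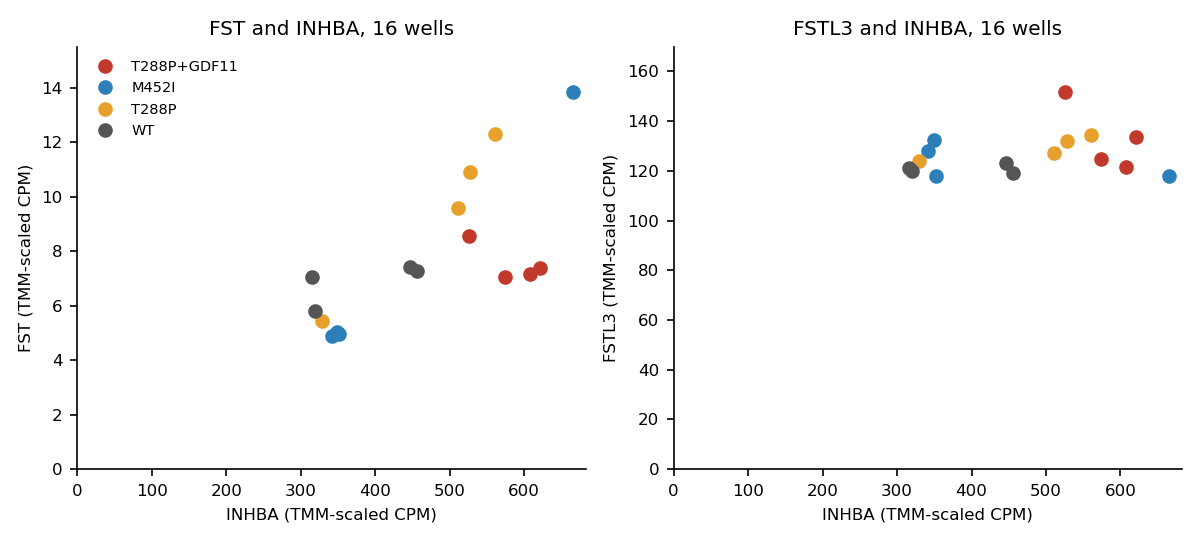
FST (y axis) against INHBA (x axis), both in TMM-scaled CPM on linear axes from 0, one point per well, coloured by group, with FSTL3 against INHBA beside it. M452I replicate 4 (665 CPM of INHBA, 13.8 CPM of FST) lies beyond the highest T288P well, the T288P+GDF11 wells lie to the right at 7.04 to 8.58 CPM of FST, and FSTL3 stays between 118 and 152 CPM over the whole range of INHBA.

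FSTL3, the follistatin-like protein that also binds activins and GDF11 and lacks the heparin-binding segment of follistatin, was the highest of the antagonists per kb and did not pass in any comparison. The gene (ENSG00000070404, chr19:676365-683399, plus strand) gave 122, 152, 125 and 134 CPM in T288P+GDF11, 128, 118, 132 and 118 CPM in M452I, 124, 127, 134 and 132 CPM in T288P and 123, 120, 119 and 121 CPM in WT. T288P lay just above WT in 4 of 4 wells, where 5.04% of all genes had no overlap and 2.1% had none with T288P higher. The log2 fold change of T288P over WT was 0.10 (SE 0.08, 95% interval -0.06 to 0.26, edgeR adjusted p = 0.779). T288P+GDF11 over T288P was 0.04 (SE 0.08, edgeR adjusted p = 0.772), and the 95% interval of the fold ran from 0.920 to 1.15. T288P+GDF11 over WT was 0.14 (SE 0.08, edgeR adjusted p = 0.191), and M452I over WT was 0.04 (SE 0.08, 95% interval -0.12 to 0.20).

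FSTL1, the more distant relative of follistatin, was low and uneven. The gene (ENSG00000163430, chr3:120392293-120451253, minus strand) gave 2.53 to 3.28 CPM in T288P+GDF11, 2.19 to 3.98 CPM in M452I, 1.54 to 3.58 CPM in T288P and 1.79 to 3.09 CPM in WT, and all 4 groups overlapped. T288P+GDF11 over T288P was 0.13 (SE 0.26, 95% interval -0.42 to 0.69, edgeR adjusted p = 0.785). Of its exon bases, 3.62% lie under an antisense gene, and reads of the pair could not be told apart because the strand setting is not given in the sources used here.

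BAMBI, the kinase-less pseudoreceptor that dampens TGF-beta, activin and BMP signalling at the membrane, overlapped in all groups. The gene (ENSG00000095739, chr10:28677342-28682939, plus strand) gave 9.97, 10.2, 7.89 and 8.43 CPM in T288P+GDF11, 9.65, 12.4, 9.58 and 6.30 CPM in M452I, 12.5, 7.60, 10.0 and 9.58 CPM in T288P and 11.7, 9.51, 7.49 and 10.7 CPM in WT. M452I replicate 4, the highest well for FST, was the lowest for BAMBI, and T288P replicate 1, the lowest T288P well for FST, was the highest for BAMBI. T288P+GDF11 over T288P was -0.12 (SE 0.19, 95% interval -0.53 to 0.29, edgeR adjusted p = 0.723). Over the 12 untreated wells BAMBI correlated with FST at r = -0.571 and with the first principal component at r = -0.768, as a description of libraries that share the same outlying wells.

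The BMP antagonists other than noggin did not pass in any comparison. TWSG1, which steadies the complex of chordin and BMP (ENSG00000128791, chr18:9334767-9402420, plus strand), gave 40.7, 40.7, 49.3 and 46.3 CPM in T288P+GDF11, 34.6, 39.1, 34.8 and 43.3 CPM in M452I, 45.3, 41.3, 38.8 and 32.5 CPM in T288P and 47.1, 42.1, 49.0 and 33.3 CPM in WT. Its log2 fold change was 0.16 for T288P+GDF11 over T288P (SE 0.12, edgeR adjusted p = 0.417), -0.18 for M452I over WT (SE 0.12, edgeR adjusted p = 0.83) and -0.12 for T288P over WT (SE 0.12, edgeR adjusted p = 0.859). The transcript of chordin itself, CHRD, was near 0, with 18 counts over all 16 libraries and a mean of 0.029 CPM. NBL1, a cystine-knot BMP antagonist of the DAN family (ENSG00000158747, chr1:19596979-19658456, plus strand), averaged 88.8 ± 5.83 CPM in T288P+GDF11, 92.8 ± 5.72 CPM in M452I, 91.4 ± 5.50 CPM in T288P and 90.2 ± 5.06 CPM in WT (SD, n = 4 each). The NBL1 log2 fold change was -0.04 for T288P+GDF11 over T288P (SE 0.08, 95% interval -0.20 to 0.12, edgeR adjusted p = 0.769) and 0.04 for M452I over WT (SE 0.08, edgeR adjusted p = 0.937). Part of the NBL1 exons also belongs to a readthrough gene, MICOS10-NBL1, which held 9 counts over all libraries beside 52941 for NBL1.

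GREM1, another DAN-family BMP antagonist (ENSG00000166923, chr15:32717974-32745107, plus strand), was at or near 0. It had 4 counts in T288P+GDF11 replicate 3 and 4 in T288P+GDF11 replicate 4, 2 counts in WT replicate 2, and 0 in the other 13 wells. A count of 0 allows up to 3 counts, which corresponds to 0.0650 to 0.106 CPM depending on the library, and covers counting error only. No fold was computed for GREM1.

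**Figure D3:**
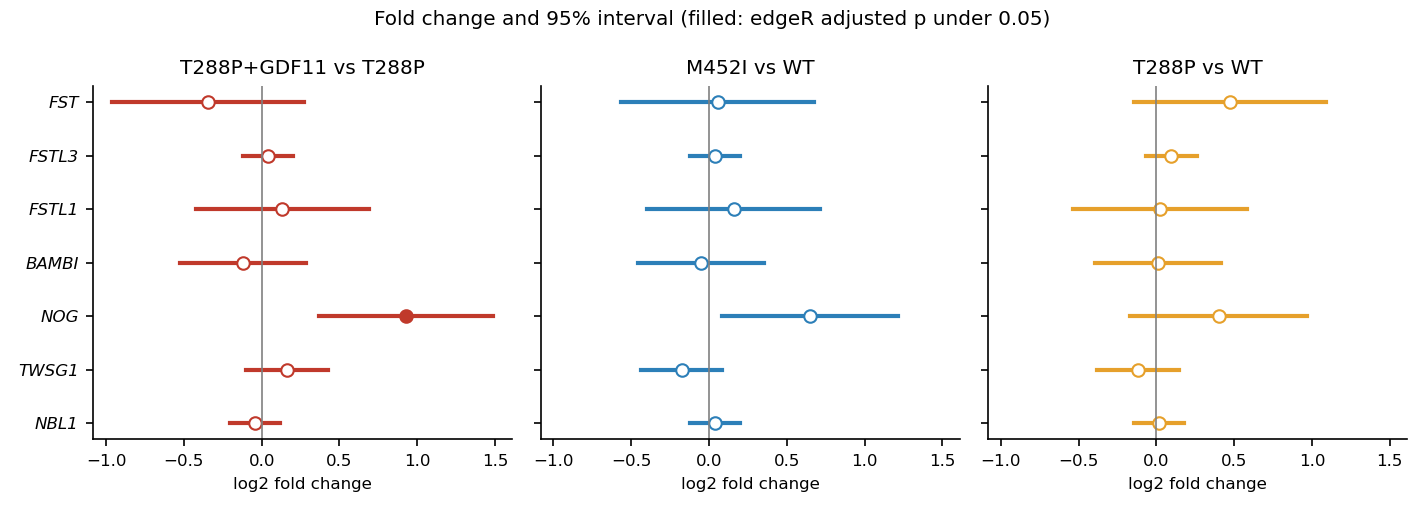
Log2 fold change (x axis) of the 7 tested antagonists (rows) in T288P+GDF11 over T288P, M452I over WT and T288P over WT, with 95% intervals from the edgeR model as lines; filled points have an adjusted p under 0.05. The filled point is NOG at 0.93 for T288P+GDF11 over T288P, and the intervals of FSTL3 and NBL1 are the narrowest.

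Around these antagonists, the pathway genes were described from lists drawn up by role, with earlier results of these data known. In T288P+GDF11 against T288P, 5.07% of all genes rose and 7.88% fell by the edgeR test. Counts of 1 or 2 calls from such short lists say nothing particular about a list. Of 22 further antagonist genes, 5 passed the filter and 1 rose with GDF11 against T288P. That gene was SMOC1, a matricellular BMP antagonist, at 201 ± 22.8 CPM in T288P+GDF11 and 122 ± 32.6 CPM in T288P (log2 0.73, SE 0.20, edgeR adjusted p = 0.0282). Its call was lost without T288P replicate 1 or 2, or without T288P+GDF11 replicate 1, 2 or 3 (edgeR adjusted p 0.0509 to 0.0850), and with no low-count filter (edgeR adjusted p = 0.091). Of 16 coreceptors and ligand-binding matrix proteins, 9 were tested and 1 rose, LTBP2, a latent TGF-beta binding protein (24.2 ± 3.65 CPM in T288P+GDF11 and 8.57 ± 2.88 CPM in T288P, log2 1.50, SE 0.32, edgeR adjusted p = 0.0064). HTRA1, a secreted protease with the highest CPM of that list, averaged 51.9 CPM in T288P+GDF11 and 48.1 CPM in T288P and was not called. Of 3 chordin-cleaving proteases only BMP1 passed the filter, at 16.1 CPM in T288P+GDF11 and 17.2 CPM in T288P, and it was not called.

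Of 24 ligand genes, 12 were tested, 1 rose and 1 fell with GDF11, beside 5.07% and 7.88% of all genes. MSTN, which encodes myostatin, the closest relative of GDF11, averaged 0.956 ± 0.375 CPM in T288P+GDF11 and 0.236 ± 0.161 CPM in T288P (log2 1.96, SE 0.61, edgeR adjusted p = 0.0411). TGFB1 averaged 38.3 ± 6.16 CPM in T288P+GDF11 and 60.9 ± 16.5 CPM in T288P (log2 -0.67, SE 0.18, edgeR adjusted p = 0.0248). The MSTN level was low, as 1 count was worth 0.0217 to 0.0348 CPM in the T288P wells. The MSTN call was lost without T288P replicate 1, 3 or 4, T288P+GDF11 replicate 1, 2 or 3, or WT replicate 4 (edgeR adjusted p 0.0508 to 0.126). It was also lost without both wells that stood apart (edgeR adjusted p = 0.0861), with no low-count filter (0.0645) and with the replicate block (0.0886). The TGFB1 call was lost without T288P replicate 1 or 3 or T288P+GDF11 replicate 1 (edgeR adjusted p 0.0767 to 0.110). It was also lost without both wells that stood apart (edgeR adjusted p = 0.113) and with no low-count filter (0.0915). The cells' own GDF11 transcript averaged 7.05 ± 0.738 CPM in T288P+GDF11 and 5.75 ± 1.07 CPM in T288P and was not called (edgeR adjusted p = 0.347).

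Of 12 receptor genes, 10 were tested, 1 rose and 1 fell, beside 5.07% and 7.88% of all genes. TGFBR2, the type II receptor of TGF-beta, averaged 59.1 ± 5.42 CPM in T288P+GDF11 and 35.4 ± 6.43 CPM in T288P (log2 0.74, SE 0.21, edgeR adjusted p = 0.0313). ACVR1C, a type I receptor of the activin branch also called ALK7, averaged 1.45 ± 0.146 CPM in T288P+GDF11 and 3.55 ± 1.18 CPM in T288P (log2 -1.29, SE 0.24, edgeR adjusted p = 0.00229). The TGFBR2 call was lost without T288P replicate 1 or 2, or without T288P+GDF11 replicate 1, 3 or 4 (edgeR adjusted p 0.0536 to 0.111), and with no low-count filter (edgeR adjusted p = 0.0963). BMPR2, a type II receptor of BMPs with the highest mean CPM of the list (not scaled by length), averaged 59.1 ± 10.7 CPM in T288P+GDF11 and 49.0 ± 5.57 CPM in T288P and was not called. Of 8 SMAD genes tested, SMAD3 fell, to 90.3 ± 5.80 CPM in T288P+GDF11, against 124 ± 7.56 CPM in T288P (log2 -0.46, SE 0.08, edgeR adjusted p = 0.000975). SMAD2, which had the highest CPM of the SMAD genes, averaged 107 ± 7.52 CPM in T288P+GDF11 and 127 ± 17.4 CPM in T288P and was not called.

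Of 14 known SMAD2/3 target genes, 13 were tested, 5 rose and 0 fell with GDF11, beside 5.07% and 7.88% of all genes. The list was drawn up with earlier results of these data known, so its share and its median are no independent test. LTBP2, already counted with the matrix proteins, was 1 of the 5. ITGB6, which encodes a subunit of an integrin able to free TGF-beta from its latent form, averaged 150 ± 22.9 CPM in T288P+GDF11 and 49.3 ± 7.63 CPM in T288P (log2 1.60, SE 0.15). FN1, which encodes fibronectin, averaged 293 ± 32.5 CPM in T288P+GDF11 and 69.4 ± 18.7 CPM in T288P (log2 2.08, SE 0.24). PMEPA1, an inhibitor of SMAD2/3 signalling, rose by 1.33 on the log2 scale (SE 0.14). CDKN1A, which encodes the cell cycle inhibitor p21 and had the highest CPM of these genes, averaged 209 ± 24.9 CPM in T288P+GDF11 and 287.6 ± 51.8 CPM in T288P and was not called. The median log2 fold change of the 13 was 0.47, beside -0.01 over all genes. Of 10 SMAD1/5 targets, which BMPs induce and noggin restrains, 9 were tested, 2 rose and 1 fell. ID3 averaged 21.8 ± 3.50 CPM in T288P+GDF11 and 9.40 ± 2.47 CPM in T288P (log2 1.21, SE 0.18, edgeR adjusted p = 0.000493), and ID2 averaged 12.2 ± 1.95 CPM in T288P+GDF11 and 7.47 ± 1.10 CPM in T288P (log2 0.71, SE 0.14, edgeR adjusted p = 0.00402). ID1 fell to 217 ± 22.1 CPM in T288P+GDF11, against 281 ± 30.6 CPM in T288P (log2 -0.37, SE 0.11, edgeR adjusted p = 0.0396), and that call held without M452I replicate 3, M452I replicate 4, T288P replicate 4 or T288P+GDF11 replicate 2 and was lost without any other single library (edgeR adjusted p 0.0522 to 0.164). The ID1 call was also lost with no low-count filter (edgeR adjusted p = 0.0919) and with the replicate block (0.0552). Of all genes, 0.0238% were called in M452I against WT and 0.0417% in T288P against WT. In both of these comparisons TGFBI, a secreted matrix protein induced by TGF-beta, was the one called gene of these pathway lists, at 119 ± 13.7 CPM in M452I, 110 ± 9.46 CPM in T288P and 75.8 ± 5.26 CPM in WT. Its log2 fold change over WT was 0.65 in M452I (SE 0.09, edgeR adjusted p = 0.00505), a call lost without WT replicate 2 or 4 (edgeR adjusted p 0.0518 to 0.0633) and in a model of the 2 groups alone (edgeR adjusted p = 0.183). In T288P it was 0.54 (SE 0.09, edgeR adjusted p = 0.0386), a call that held without M452I replicate 4 or T288P replicate 1 and was lost without any other single library (edgeR adjusted p 0.0505 to 0.235). That call was also lost with the replicate block (edgeR adjusted p = 0.0722).

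**Figure D4:**
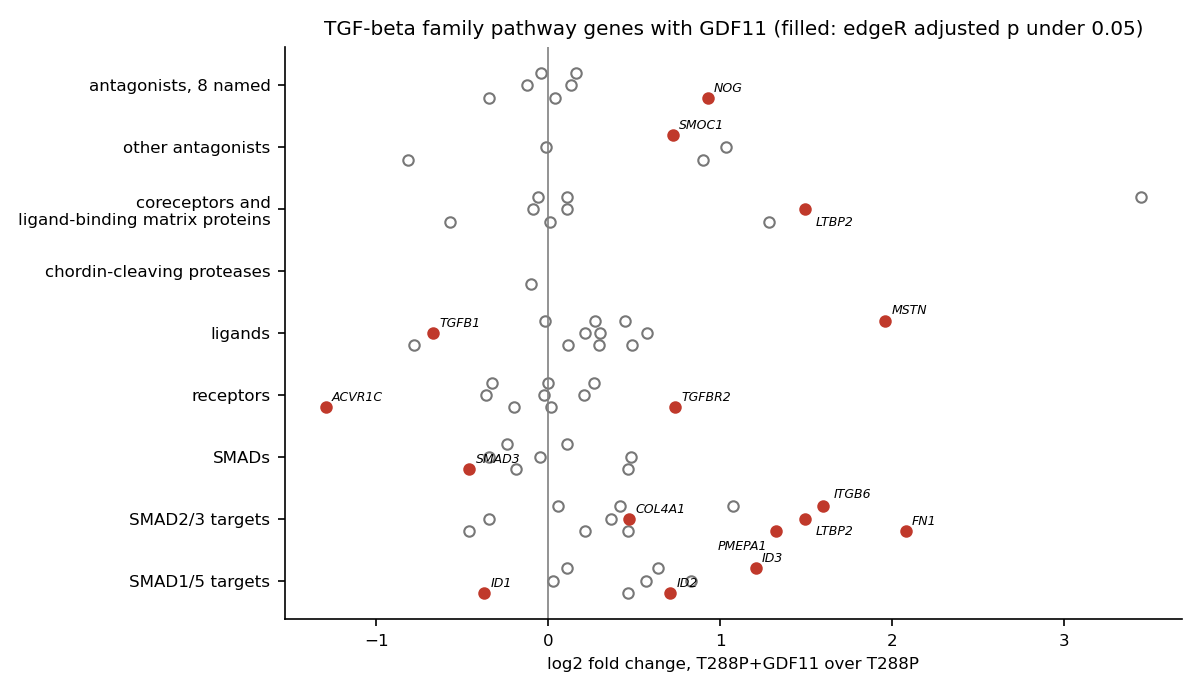
Log2 fold change of T288P+GDF11 over T288P (x axis) for each tested gene of the antagonist set and the pathway lists (rows); filled points have an edgeR adjusted p under 0.05 and are named. NOG at 0.93 is the filled point of the antagonist set, and 5 of 13 SMAD2/3 targets are filled, with FN1 at 2.08. The lists were drawn up with earlier results of these data known.

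The transcripts most like each antagonist over the 16 libraries were listed by Pearson's r of log2 CPM among 12112 genes with a mean of at least 1 CPM. NOG was most like PHTF1 (0.934), MLLT11 (0.893) and MRC2 (0.888). FST was most like ANO9 (0.937), PYGO2 (0.932) and LTB4R (0.907), and NBL1 was most like NTAN1 (0.909), MPST (0.898) and TRIB3 (0.89). TWSG1 was most like SKIL (0.847), SPRED1 (0.83) and PDE9A (0.815), and BAMBI was most like SRSF9 (0.844), RN7SL1 (0.817) and PTGES2 (0.812). FSTL3 was most like PYCR1 (0.824), FBXL6 (0.81) and NME7 (0.797), and FSTL1 was most like COP1 (0.81), ZNF836 (0.788) and H3C6 (0.785). These values share the same libraries and the same outlying wells and carry no test.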

How the data were processed

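Poly(A)-selected RNA from 16 wells was sequenced in pairs of 150-base reads, per the labels' protocols. The authors deposited 1 table of whole-number counts per gene, not normalized. HISAT2 (version not given) and StringTie 2.2.1 with GRCh38 are named in the submitters' processing notes. How counts were summed, with which gene models and strand option, is not given in the sources used here. Values of 1 (31005 of them) and 2 (29640) were about equally frequent, so both mates of a pair may have been counted, and counts may overstate fragments. The table had 0 unused value columns and 0 lines without a gene.

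The 8 genes and all lists were chosen with earlier results of these data known. The text names all 8 in every comparison, and from each pathway list the gene with the highest level, INHBA, GDF11 and up to 3 called genes with the smallest adjusted p in each main comparison. CHRD is named besides, as the partner of TWSG1. Likeness took the 3 genes with the highest Pearson's r. A gene that belonged to a pathway list is not reported here, and its list was counted without it.

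From the deposited counts, edgeR 4.0.16 in R 4.3.3 fitted 1 model of all 16 libraries (TMM, filterByExpr with a minimum count of 10, robust quasi-likelihood F test). Genes that passed held 99.89% to 99.95% of each library's counts. P-values were Benjamini-Hochberg adjusted over 16790 genes, and a gene was called under 0.05. SE is the absolute log2 fold change over the square root of F. Levels are TMM-scaled CPM, or CPM per kb of merged exons in GENCODE 29; n is 4 wells a group. Main comparisons were T288P+GDF11 against T288P and M452I and T288P against WT. Correlations used 100000-draw permutation tests (scipy 1.17.1). Alternatives were DESeq2 1.42.0, limma-voom 3.58.1, RLE normalization, no or a stricter filter (50 counts in 4 libraries), the 2 groups alone, a replicate block, and libraries left out. The model was tested on simulated data.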

Additional observations from a re-analysis of the deposited data

Results flagged for a closer look

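Within each group of 4 wells, a well whose gap to its nearest neighbour exceeded Dixon's 95% critical share of the group's range was singled out. For independent values of normal spread chance does this in about 1 of 20 groups. In all, 42 groups were screened, of which 6 were singled out. That rate cannot be set against the 6, because the FST, INHBA and ratio values of M452I replicate 4 come from 1 well. GREM1 was bound to be singled out, as the other WT wells were at 0. FST was 13.84 CPM in M452I replicate 4, against 4.878 to 5.022 CPM in the other M452I wells. INHBA was 665.1 CPM in M452I replicate 4, against 341.5 to 351.9 CPM in the other M452I wells. The FST count per 100 INHBA counts was 2.081 in M452I replicate 4, against 1.405 to 1.438 in the other M452I wells, so FST stood out there further than INHBA did. The same ratio was 1.631 in T288P+GDF11 replicate 2, against 1.176 to 1.228 in the other T288P+GDF11 wells. The GDF11 transcript was 5.953 CPM in T288P+GDF11 replicate 3, below the 7.327 to 7.549 CPM of the other wells of that group. GREM1 was 0.05197 CPM in WT replicate 2, from 2 counts, and 0 in the other WT wells.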

How the results depend on the processing

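NOG kept its direction in all 6 comparisons under each of the 24 alternatives, and its call in T288P+GDF11 against WT held in all 24. In T288P+GDF11 against T288P the NOG call was lost in 7 of the 24, and the cause was not tested. The number of antagonists called there was 0 with no low-count filter, 0 to 1 when single libraries were left out, and 1 when M452I replicate 4 and T288P replicate 1 were both left out, with FST called in place of NOG. The number called was 1 in T288P against WT and 1 in M452I against T288P without those wells (FST both times), against 0 with all wells. In T288P+GDF11 against M452I it was 1 with DESeq2 (NOG), 1 without those wells (FST) and 0 to 1 over single omissions. Of the 42 antagonist fold changes, 20 changed sign in at least 1 alternative, and 0 of these were called. FST in M452I over WT was -0.11 with limma-voom, -0.048 with the replicate block, -0.48 without both wells and -0.48 to 0.20 over single omissions; FST in T288P+GDF11 over M452I was -0.048 to 0.61. In T288P+GDF11 over T288P, without both wells, FSTL1 was -0.054 and BAMBI 0.011; over single omissions FSTL1 was -0.040 to 0.31, FSTL3 -0.015 to 0.082, BAMBI -0.21 to 0.024 and NBL1 -0.070 to 0.0073. Counts over all genes depended on the settings too. In M452I against WT they were 4, with 31 by DESeq2, 0 in a model of the 2 groups, 640 without both wells and 1 to 9 over single omissions. In T288P against WT they were 7, with 93 by DESeq2, 11 with no filter, 1 with the replicate block, 698 without both wells and 1 to 29 over single omissions. In M452I against T288P they were 1, with 6 by DESeq2, 0 in a model of the 2 groups and 2420 without both wells. In T288P+GDF11 against T288P they were 2174, with 1391 without a filter and 1028 to 3435 over single omissions, and in T288P+GDF11 against M452I 3558, with 2261 in a model of the 2 groups, 6941 without both wells, and 1661 to 6578. The replicate block gave an edgeR adjusted p of 0.0474 for NOG in T288P+GDF11 against T288P. Same-numbered wells correlated above 0.1 in 4 of 24 pairs (r -0.197 to 0.174), and 3 of 16 libraries correlated best with their own number. No pairing by number was seen, but this check includes the wells that stood apart and cannot exclude one. NOG rests on 29 to 141 counts a well, which limits how small a change could be seen.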
